A study of Mus musculus with 11 samples.

Results

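The Frizzled receptors are the 10 mouse genes Fzd1 to Fzd10, followed here through 3 stages of a mammary cancer driven by the oncogene Wnt1. Their members were chosen by name, as the rows of the expression table whose Entrez Gene identifier belongs to one of the 10 symbols, and all 10 had a row among the 23835 named genes tested. The rule itself uses no measured value, but the family was chosen with earlier results of these data known. Frizzled proteins cross the membrane repeatedly and bind secreted Wnt ligands through a cysteine-rich domain outside the cell. With the co-receptors Lrp5 or Lrp6 they recruit Dishevelled and stabilise beta-catenin, and through other partners they act in planar cell polarity and calcium signalling. In the mammary gland Wnt signalling is known for maintaining stem cells.

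Every sample held tumour cells of the genotype MMTV-rtTA;TetO-Wnt1, in which the MMTV promoter drives the doxycycline-dependent activator rtTA and rtTA switches on Wnt1. The cells were labelled with H2B-eGFP, a green fluorescent histone, and grown orthotopically in female nu/nu mice, which lack a thymus and most T cells, and their titles record them as GFP positive. Primary cells (4 arrays) came from tumours labelled untreated in mice on doxycycline. Residual cells (3 arrays) came from lesions 28 days after doxycycline withdrawal, and recurrent cells (4 arrays) from tumours labelled recurrent, both with Wnt1 inhibition as their treatment. The labels give neither the animals' ages nor whether mice were pooled. Nor do they state that each array had its own animal, and the spread behind every p-value may therefore be partly technical. All RNA was hybridised to Affymetrix arrays.

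Each value is a log2 signal of 1 probe set per gene, so a difference of 1 is a 2-fold change, and levels of different genes are not compared, except that the markers with the highest mean signal of a list are the ones named. As a guide to background, the 95th percentile of 1066 olfactory receptor genes, which mammary cells are not known to use, was 3.96 to 4.02 on the primary arrays, 4.34 to 4.38 on the residual arrays and 4.03 to 4.09 on the recurrent arrays. Wnt1 itself read 2.89 to 3.26 on all 11 arrays, inside that background range. Which part of Wnt1 its probe set covers is unknown here, and the value is therefore no check on the switch. The interquartile range of all genes was narrower on the residual arrays (3.57 to 3.60) than on the primary (3.77 to 3.84) or recurrent arrays (3.71 to 3.78). Precision is limited by the 3 or 4 arrays of each group.

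Marker genes describe the samples. The simple-epithelium keratins Krt8 and Krt18 were bright throughout, with group means of 10.08, 8.41 and 9.78 for Krt8 and of 10.42, 8.09 and 9.84 for Krt18 (primary, residual, recurrent). Of the epithelial adhesion genes in the luminal list, Epcam lay above the olfactory percentile on only 1 of 11 arrays. Cdh1, E-cadherin, lay above it on all 11, with group means of 6.48, 7.27 and 5.99. Endothelial and lymphocyte markers were mostly at background, with 0 to 3 of 10 endothelial and 1 or 2 of 10 lymphocyte markers above it on any array. Fibroblast markers were well above it at every stage, on 11 to 15 of 15 genes. Macrophage markers were above it too, on 9 to 11 of 11 genes on primary and recurrent arrays and 7 to 9 on residual arrays. Of 12 luminal markers, 5 or 6 were above it on primary and recurrent arrays and 5 to 9 on residual arrays. In bulk samples such as these, fewer cells of a type and less RNA per cell cannot be told apart. Nor can either be told apart from a change of these genes in the labelled tumour cells themselves.

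In residual cells, 4 Frizzled genes stood higher than in primary cells: Fzd6, Fzd7, Fzd2 and Fzd1, by 5.62-, 3.42-, 2.50- and 1.77-fold. None of the 10 was called lower. In recurrent cells Fzd1 and Fzd7 were lower again than in residual cells, Fzd6 was spread over the whole span between the other stages, and none of the 10 differed from primary cells at the threshold used. The differences were tested with limma on all genes and called at a Benjamini-Hochberg adjusted p under 0.05.

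Of the 10 genes, 4 were called higher in residual than in primary cells, where 4.81% of all genes tested were called higher, 7.61% lower and 12.4% in either direction. The residual and primary arrays did not overlap for 6 of the 10, against 24.8% of all genes. Against residual cells, 2 of 10 were called lower in recurrent cells, where 2.19% of all genes were called lower, 3.58% higher and 5.78% in either direction, and the arrays did not overlap for 2 of the 10, against 15.5% of all genes. The recurrent arrays gave 0 calls against primary cells in limma, where 1.8% of all genes were called. At an unadjusted p under 0.05 there were 3 of the 10, where 13.6% of all genes passed. The median difference of the 10 genes was 0.42 for residual against primary, 0.17 for recurrent against primary and -0.33 for recurrent against residual. Over all genes those medians were 0.03, -0.01 and -0.03. All 3 comparisons share arrays with each other, and the choice of the family was not blind to earlier results of these data.

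**Figure D1:**
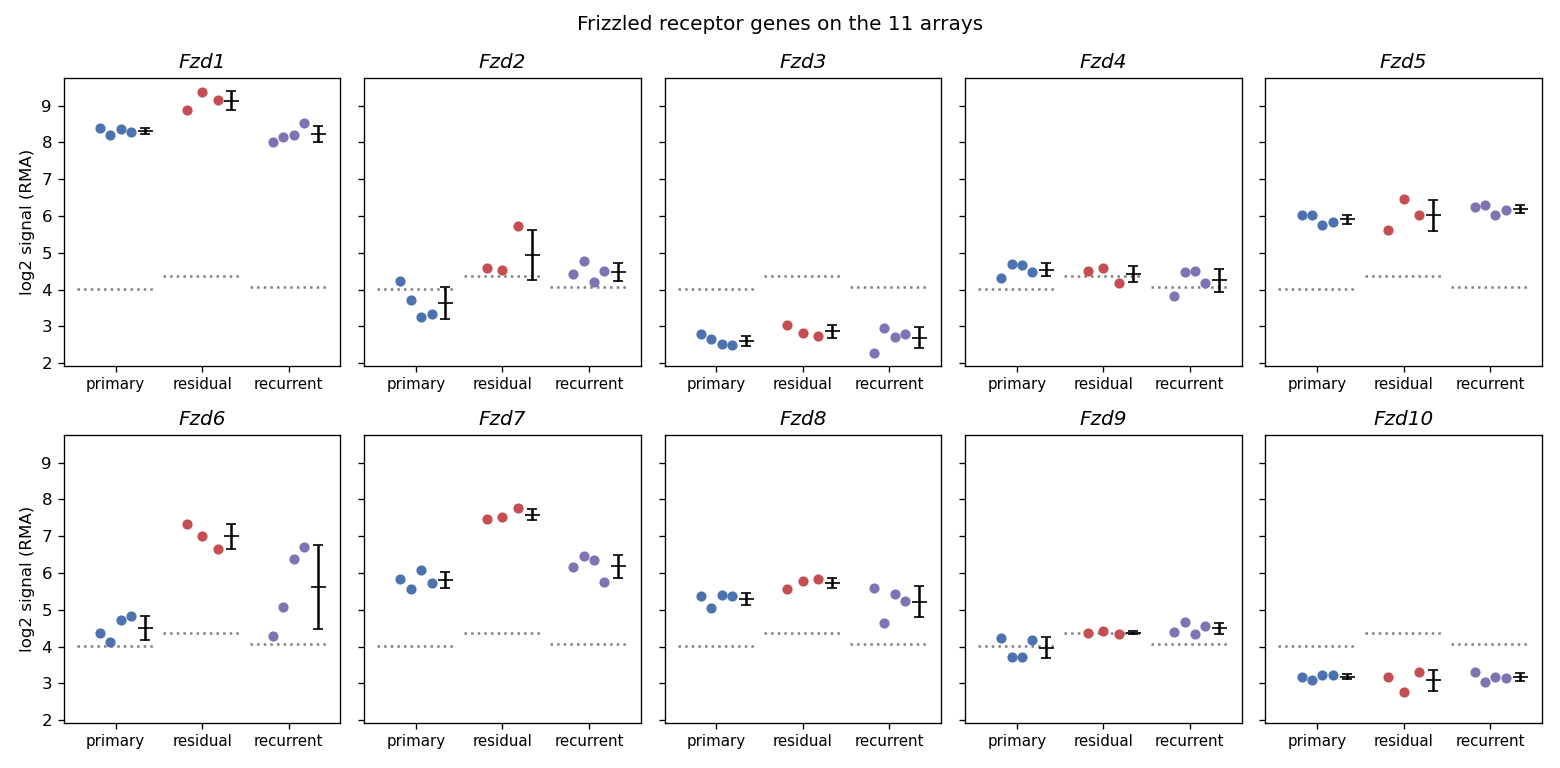
Log2 signal (vertical axis) of each Frizzled gene on the 4 primary, 3 residual and 4 recurrent arrays (points), with the group mean and SD (bars) and the mean 95th percentile of olfactory receptor genes in each group (dotted lines). Fzd1, Fzd6 and Fzd7 sit above the primary arrays on all 3 residual arrays, Fzd6 spreads from 4.28 to 6.72 on the recurrent arrays, and Fzd3 and Fzd10 lie below the dotted lines throughout.

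Fzd1, Fzd2 and Fzd7 form a closely related branch of the family, and all of them rose in residual cells. Promoters of Fzd1 and Fzd7 are shown because these genes were called in both comparisons with residual cells. They are RefSeq sequences of GRCm38.p6, 5′ to 3′ on the gene's own strand, from 250 bases before the annotated start to 50 bases from it on. Capitals mark matches on either strand to 4 motifs. CTTTGA is a form of the core bound by TCF/LEF factors, the nuclear partners of beta-catenin. TATAAA is the TATA box, GGGCGG the GC box and TGANTCA the AP-1 site. Other forms of the TCF/LEF core, such as CTTTGT, were not searched and are not marked. The Fzd1 window is chr5:4758167-4758466 on the minus strand and the Fzd7 window chr1:59481897-59482196 on the plus strand.
Fzd1: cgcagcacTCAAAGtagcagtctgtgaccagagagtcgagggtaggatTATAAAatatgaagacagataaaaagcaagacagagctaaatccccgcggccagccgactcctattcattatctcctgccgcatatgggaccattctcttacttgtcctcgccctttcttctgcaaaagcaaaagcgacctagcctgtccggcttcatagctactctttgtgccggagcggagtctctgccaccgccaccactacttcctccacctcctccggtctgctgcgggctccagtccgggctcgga
Fzd7: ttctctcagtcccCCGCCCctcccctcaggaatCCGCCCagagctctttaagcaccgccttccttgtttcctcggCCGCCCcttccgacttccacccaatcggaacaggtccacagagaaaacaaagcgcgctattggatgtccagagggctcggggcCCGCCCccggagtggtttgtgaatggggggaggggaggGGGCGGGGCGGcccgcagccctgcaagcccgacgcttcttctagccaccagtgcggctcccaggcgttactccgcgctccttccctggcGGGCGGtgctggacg

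The Fzd1 window held CTTTGA once, on the reverse strand at position -242 from the start, and the TATA letters once, at position -202. It held 0 GC boxes and 0 AP-1 sites. The Fzd7 window held 7 GC boxes, a pair of which overlap by a base, and none of the other letters searched. The letters CTTTGT, on either strand, stand unmarked in both windows. Among 32851 RefSeq promoter windows of the same length, 16% held CTTTGA, 13.6% the TATA letters, 35.7% a GC box and 7.81% an AP-1 site. Of the 10 Frizzled genes 6 matched a window. Fzd4, Fzd5, Fzd9 and Fzd10 held 8, 10, 1 and 1 GC boxes and none of the other letters searched. CTTTGA was therefore present in 1 of the 6, and other forms of the TCF/LEF core were not counted. Both windows were richer in CpG than the median window of 7, with 16 in Fzd1 and 24 in Fzd7. A match describes the letters only.

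Fzd7, a receptor known for its role in mammary stem cells and itself often listed as a Wnt target, read 7.48, 7.51 and 7.76 on the residual arrays against 5.83, 5.57, 6.09 and 5.74 on the primary arrays. Every residual array was higher than every primary array, with a wide gap between the groups. The difference was 1.78 (SE 0.18, 3.42-fold, 95% interval 2.59 to 4.53, adjusted p = 0.000101 in limma). The recurrent arrays read 6.16, 6.46, 6.34 and 5.75. All 4 lay below every residual array, and they overlapped the primary arrays. Recurrent cells were 1.40 lower than residual cells on the log2 scale (difference -1.40, SE 0.18, adjusted p = 0.000998) and 0.37 higher than primary cells (95% interval -0.0012 to 0.75, adjusted p = 0.370), which was not called.

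Fzd1, a receptor of canonical Wnt signalling, had a narrower range. It read 8.89, 9.38 and 9.15 on the residual arrays against 8.40, 8.21, 8.36 and 8.29 on the primary arrays, again without overlap. The difference was 0.82 (SE 0.15, 1.77-fold, 95% interval 1.40 to 2.23, adjusted p = 0.00505 in limma). Recurrent cells read 8.01, 8.15, 8.20 and 8.53, all below the lowest residual array. They differed by -0.92 from residual cells (SE 0.15, adjusted p = 0.00512) and by -0.095 from primary cells (95% interval -0.41 to 0.22, adjusted p = 0.855).

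Fzd2, known in other settings as a receptor of the non-canonical ligand Wnt5a, was dim. It read 4.59, 4.53 and 5.74 on the residual arrays, all above the olfactory percentile, against 4.22, 3.71, 3.25 and 3.35 on the primary arrays, where only primary 1 was above it. The groups did not overlap, but residual 3 stood well above the other residual arrays. The difference was 1.32 (SE 0.31, 2.50-fold, 95% interval 1.57 to 3.98, adjusted p = 0.0159 in limma), measured from a background level, where RMA signals may understate a change. The olfactory percentile was itself higher on the residual arrays (4.34 to 4.38) than on the primary arrays (3.96 to 4.02), which may overstate it. The part of this rise in the difference was not tested. With the replicate number as a block the difference was 1.28 and not called (adjusted p = 0.0653 in limma), although those numbers did not pair the samples. Recurrent arrays read 4.42, 4.78, 4.21 and 4.50, overlapping both other stages. They differed by 0.84 from primary cells (95% interval 0.22 to 1.46, adjusted p = 0.189) and by -0.48 from residual cells (95% interval -1.15 to 0.19, adjusted p = 0.442).

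Fzd3 and Fzd6 form the branch best known for planar cell polarity, in mouse for axon guidance and for the orientation of hair follicles. Fzd6 had the largest difference of the family. It read 7.34, 7.00 and 6.65 on the residual arrays against 4.38, 4.12, 4.71 and 4.82 on the primary arrays. The groups lay far apart, with a difference of 2.49 (SE 0.48, 5.62-fold, 95% interval 2.70 to 11.7, adjusted p = 0.00615 in limma).

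On the recurrent arrays Fzd6 read 4.28, 5.07, 6.39 and 6.72. Recurrent 1 lay among the primary arrays, recurrent 4 inside the residual range, and recurrent 2 and 3 between them. Their SD of 1.14 compares with 0.35 in residual and 0.32 in primary cells, and is at or above the recurrent SD of 98.6% of all genes. With this spread, neither the difference from primary cells (1.11, 95% interval 0.13 to 2.09, adjusted p = 0.291) nor that from residual cells (-1.38, 95% interval -2.44 to -0.32, adjusted p = 0.132) was called in limma. Single arrays decided the second of these: without recurrent 4 it was -1.75 and passed (adjusted p = 0.0463), without recurrent 1 it was -0.94 (adjusted p = 0.201). The difference from primary cells was 0.74 without recurrent 4 (adjusted p = 0.498) and 1.55 without recurrent 1 (adjusted p = 0.0619).

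Fzd6 and Fzd7 put the recurrent arrays in different orders. Recurrent 4 had the highest Fzd6 and the lowest Fzd7 of the 4, and recurrent 2 the highest Fzd7 and a low Fzd6. Beside these values, the mean of the macrophage markers on recurrent 1 to 4 was 5.31, 6.01, 5.47 and 6.43, that of the basal epithelial markers 4.70, 4.85, 5.53 and 5.08, and that of the fibroblast markers 8.92, 8.39, 9.15 and 8.65. The spread of the basal mean lay largely in the contractile genes Acta2 and Cnn1, whose SDs over the recurrent arrays were 2.25 and 2.09. The part of these markers in the spread of Fzd6 was not tested.

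Fzd3 read 2.29 to 3.05 on all 11 arrays, below the olfactory percentile on each of them. Its differences ran from -0.18 to 0.25 (adjusted p = 0.382 to 0.896 in limma), from a signal that was not above background.

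**Figure D2:**
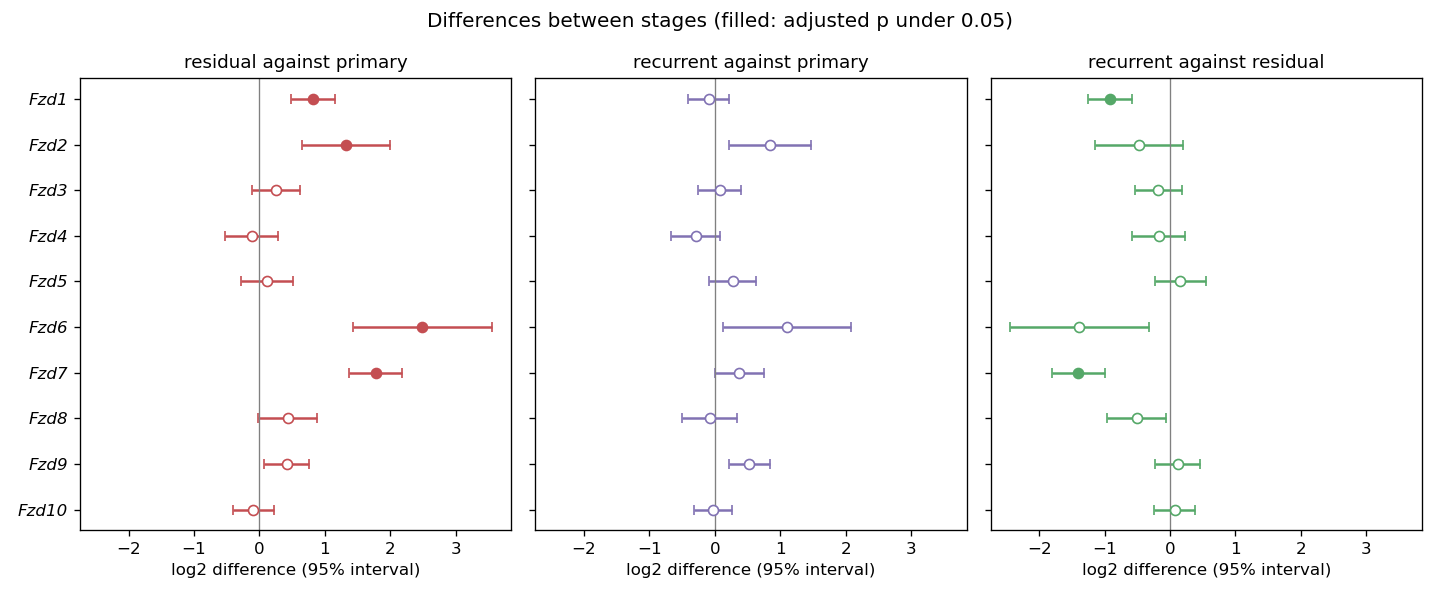
Log2 difference (horizontal axis) of each Frizzled gene in the 3 comparisons, with 95% intervals from limma; filled points passed an adjusted p under 0.05. Fzd1, Fzd2, Fzd6 and Fzd7 are filled and positive for residual against primary, Fzd1 and Fzd7 are filled and negative for recurrent against residual, and no point is filled for recurrent against primary.

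Fzd5 and Fzd8, a related pair of canonical receptors, were above background on all arrays and were not called in any comparison. Fzd8 read 5.58, 5.80 and 5.83 on the residual arrays against 5.38, 5.05, 5.39 and 5.38 on the primary arrays, without overlap but by a small margin. The difference was 0.43 (95% interval -0.020 to 0.88, adjusted p = 0.216 in limma). It read 5.60, 4.63, 5.42 and 5.23 on the recurrent arrays, and its difference from residual cells was -0.51 (95% interval -0.96 to -0.059, adjusted p = 0.192). The direction of these values was that of Fzd7, but neither passed the test. Fzd5 stayed within a narrow band of 5.61 to 6.45 on the 11 arrays. Its differences were 0.12 for residual against primary (95% interval -0.28 to 0.51), 0.27 for recurrent against primary (-0.091 to 0.63) and 0.16 for recurrent against residual (-0.24 to 0.55). A 2-fold change lies outside each of these intervals.

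Fzd4, which also binds the non-Wnt ligand Norrin, read 4.52, 4.58 and 4.17 on the residual arrays against 4.31, 4.71, 4.66 and 4.49 on the primary arrays. Recurrent arrays read 3.83, 4.49, 4.50 and 4.18, so the 3 stages overlapped, close to background. The differences ran from -0.29 to -0.12 (adjusted p = 0.513 to 0.751 in limma). Tspan12, the tetraspanin that assists Fzd4 in Norrin signalling, had means of 6.05 ± 0.30 for primary, 5.74 ± 0.55 for residual and 4.73 ± 0.99 for recurrent cells (SD, n = 4, 3 and 4). Its difference of -1.32 between recurrent and primary cells was not called (adjusted p = 0.161).

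Fzd9 and Fzd10 are the remaining members. Fzd9, in mouse a regulator of bone formation, read 4.36, 4.43 and 4.35 on the residual arrays against 4.24, 3.72, 3.72 and 4.18 on the primary arrays. On the recurrent arrays it read 4.41, 4.67, 4.35 and 4.56. All 7 arrays after withdrawal lay above all 4 primary arrays, by a small step at the edge of background. This was noticed in the values, and the share of all genes with such a gap was not counted. The olfactory percentile rose too, from 3.96 to 4.02 on the primary arrays to 4.34 to 4.38 on the residual arrays. On the recurrent arrays it was 4.03 to 4.09. The differences were 0.41 for residual against primary (95% interval 0.068 to 0.76, adjusted p = 0.119) and 0.53 for recurrent against primary (95% interval 0.21 to 0.85, adjusted p = 0.105 in limma), neither of which passed. Recurrent and primary arrays did not overlap for 1 of the 10 genes, Fzd9, which is near the 9.02% of all genes. Fzd10 read 2.77 to 3.32, below the olfactory percentile on every array, and its differences lay between -0.095 and 0.073.

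Fzd1 and Fzd7 were highest in residual cells and were not called between recurrent and primary cells. Fzd6 and Fzd2 were highest in residual cells and lowest in primary cells, with recurrent cells between and not called against either. Fzd9 was lowest in primary cells, and Fzd5 and Fzd4 had no order beyond their spread. The called differences between residual and primary cells held without each of the 11 arrays in turn, with adjusted p of at most 0.000863 for Fzd7, 0.0231 for Fzd1, 0.0273 for Fzd6 and 0.0494 for Fzd2.

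Residual and recurrent cells were also set together against primary cells. Because this comparison was chosen after the values of Fzd2 and Fzd9 had been seen, its values are a description with no test. The mean of the residual and recurrent group means was above the primary mean by 1.80 for Fzd6 (SE 0.40), 1.08 for Fzd2 (SE 0.25), 1.07 for Fzd7 (SE 0.15), 0.47 for Fzd9 (SE 0.13) and 0.36 for Fzd1 (SE 0.13). For Fzd1 and Fzd7 this mean joins stages that were called different from each other.

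Partners of the Frizzled proteins and the rest of the pathway were counted in the same way. Over 10 lists of Wnt pathway genes, which together hold 108 genes that are not Frizzled receptors, 14 genes were higher and 7 lower in residual than in primary cells. That is 19.4%, beside 12.4% of all genes. The lists were compiled with earlier results of these data known, and some genes stand in more than 1 list. Of all genes, 4.81% were called higher and 7.61% lower in residual than in primary cells. Counts of 1 or 2 in a single pathway list are not read as a change of that list. Recurrent cells had 4 higher and 2 lower against primary cells, which is 5.56% beside 1.8% of all genes. Against residual cells they had 4 higher and 3 lower, which is 6.48% and near the 5.78% of all genes.

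Among 12 co-receptors and other Wnt receptors, 1 rose in residual cells and none fell. This was Ror1, a receptor of Wnt5a with a Frizzled-type cysteine-rich domain, with means of 6.24 ± 0.68 in residual and 5.24 ± 0.26 in primary cells (SD, n = 3 and 4, adjusted p = 0.0313 in limma). The canonical co-receptors were bright and not called. Lrp6 had means of 8.47 ± 0.20 in residual and 8.10 ± 0.31 in primary cells (adjusted p = 0.278), and Lrp5 of 7.07 ± 0.33 and 7.49 ± 0.28 (adjusted p = 0.434). The list's median difference was 0.16. In recurrent cells none of the 12 was called against either stage, with the smallest p against primary cells for Reck, a membrane protein that assists Wnt7 signalling (0.98, adjusted p = 0.103), and against residual cells for Ryk, a Wnt-binding pseudokinase (-0.41, adjusted p = 0.143).

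Of 10 genes of Frizzled turnover and R-spondin reception, 1 fell in residual cells and none rose. Lgr6, an R-spondin receptor, had means of 6.62 ± 0.27 in residual and 8.16 ± 0.20 in primary cells (SD, n = 3 and 4, adjusted p = 0.00345). It stayed low in recurrent cells, at 6.47 ± 0.57 (n = 4, adjusted p = 0.00599 against primary cells). Znrf3 and Rnf43, the ubiquitin ligases that remove Frizzled proteins from the cell surface, differed by -0.028 and 0.22 between residual and primary cells (adjusted p = 0.968 and 0.597 in limma). Apcdd1, a membrane-bound Wnt inhibitor, was 1.49 higher in recurrent than in residual cells (adjusted p = 0.0119).

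Decoys that share the cysteine-rich domain were among the called genes. Of 7 genes for secreted Frizzled-related proteins, Wif1 and Norrin, 2 rose in residual cells: Sfrp2, with means of 11.63 ± 0.38 in residual and 10.10 ± 0.17 in primary cells, and Sfrp4, at 4.52 ± 0.25 and 3.89 ± 0.22 (SD, n = 3 and 4, adjusted p = 0.000827 and 0.0337 in limma). Sfrp4 was near background, above the olfactory percentile on 2 of 3 residual and 2 of 4 primary arrays. In recurrent cells Sfrp2 was still 1.29 above primary cells (adjusted p = 0.00698). Sfrp1 went the other way, with a mean of 5.87 ± 0.86 in recurrent cells against 7.50 ± 0.19 in primary cells (n = 4 each, adjusted p = 0.0447), and it was 1.92 lower than in residual cells (difference -1.92, adjusted p = 0.0146). Of the other proteins with such a domain, 7 of 8 were measured. Smo, the Hedgehog transducer, was 0.68 higher in residual than in primary cells (adjusted p = 0.0480), and Col18a1, the collagen that releases endostatin, was 1.44 lower there (difference -1.44, adjusted p = 6.76e-05) and 1.57 higher in recurrent than in residual cells (adjusted p = 6.69e-05).

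Downstream of the receptor, Dvl1, Dvl2 and Dvl3, the Dishevelled proteins, were not called in any comparison. Dvl1 had the smallest p of them for residual against primary, with means of 5.80 ± 0.51 in residual and 6.54 ± 0.28 in primary cells (adjusted p = 0.0690). Of the 12 genes of that list 2 rose in residual cells and none fell: the Dishevelled inhibitor Nkd2, by 5.96 (adjusted p = 3.42e-07), and Dact2, a Dishevelled-binding regulator, by 0.71 (adjusted p = 0.00981). Nkd2 was 1.80 lower in recurrent than in residual cells (difference -1.80, adjusted p = 0.00313 in limma). It was still 4.16 above primary cells (adjusted p = 1.18e-05). Its rises were measured from background: the primary mean was 3.95, with 2 of 4 primary arrays above the olfactory percentile. Among 10 planar cell polarity genes, in whose pathway Fzd3 and Fzd6 act, Vangl1 was lower in residual cells (-0.88, adjusted p = 0.00782) and Prickle2, which stayed below the olfactory percentile on all arrays, higher (0.53, adjusted p = 0.0457). None of them was called in recurrent cells against either stage.

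**Figure D3:**
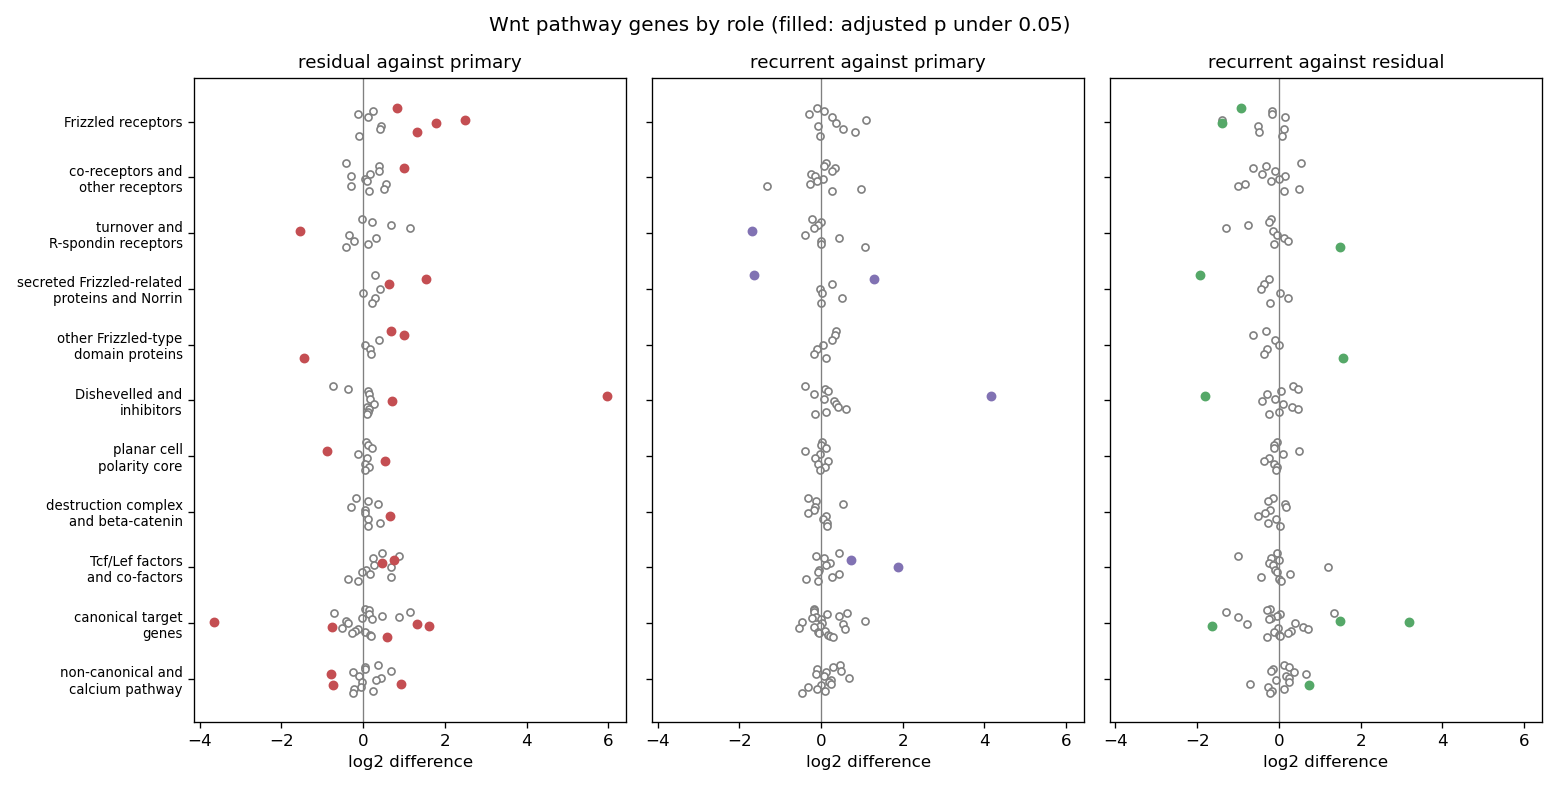
Log2 difference (horizontal axis) of every measured gene in the Frizzled family and in 10 lists of Wnt pathway genes, with Frizzled genes left out of the lists, in the 3 comparisons; filled points passed an adjusted p under 0.05. The largest positive value is Nkd2 at 5.96 in residual against primary cells, and the Frizzled row has 4 filled points there.

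Of 10 genes of the destruction complex, including beta-catenin itself, 1 rose in residual cells: Gsk3b, a kinase that marks beta-catenin for removal, by 0.65 (adjusted p = 0.0286). Ctnnb1, beta-catenin, differed by -0.19 and Axin2, a scaffold and widely used Wnt target, by 0.050 (adjusted p = 0.497 and 0.901 in limma). Of 13 Tcf/Lef factors and co-factors 2 rose: Tcf7l2 by 0.75 and Bcl9 by 0.46 (adjusted p = 0.00928 and 0.0477). Tcf7l2 was also 0.74 higher in recurrent than in primary cells, as was the co-factor Pygo1 by 1.89 (adjusted p = 0.0269 and 0.0309 in limma). Pygo1 was near background in primary cells, with a mean of 3.84 and 2 of 4 arrays above the olfactory percentile.

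The list of 24 canonical Wnt target genes held Fzd7, and had calls in both directions. In residual cells 4 rose, namely Fzd7, Ccn5, Ccn4 and Sox4, and 2 fell, Ccnd1 and Cd44. Of all genes, 4.81% were called higher and 7.61% lower in that comparison. Ccn5 and Ccn4, matricellular proteins once named as Wnt1-induced, rose by 1.62 and 1.32 (adjusted p = 0.00235 and 0.0219), while cyclin D1, Ccnd1, fell by 3.65 (adjusted p = 1.96e-05 in limma). The median difference was 0.09. In recurrent against residual cells, Fzd7 and Ccn5 were lower and Ccnd1 and Apcdd1 higher, and in recurrent against primary cells 0 of 24 were called. Of 16 genes of the non-canonical and calcium pathway 1 rose and 2 fell in residual cells, the 1 being the calcium-dependent factor Nfatc4 (0.94, adjusted p = 0.00711). The kinases Camk2d and Prkca were those that fell, by 0.79 and 0.73 (adjusted p = 0.0492 and 0.00954). Wnt5a read below the olfactory percentile on all 11 arrays.

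Other features of the samples changed along with the Frizzled genes. Fibroblast markers were called higher in 11 of 15 cases in residual against primary cells, where 4.81% of all genes were. The list mean was 8.50 to 9.70 on the residual arrays and 6.63 to 7.16 on the primary arrays. On the recurrent arrays that mean was 8.39 to 9.15, and 7 of 15 markers were higher than in primary cells, where 0.818% of all genes were. Against residual cells 0 markers were higher and 1 was lower, Pi16, while Fzd1 and Fzd7 were lower. The brightest fibroblast markers were S100a4, at 12.79 ± 0.05 in residual and 12.92 ± 0.04 in primary cells (SD, n = 3 and 4, adjusted p = 0.493), and Fbn1, fibrillin, at 11.50 ± 0.11 and 10.35 ± 0.29 (adjusted p = 0.00878). The part of this list in the Frizzled values was not tested.

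The mitosis list was lowest at the stage where Fzd1 and Fzd7 were highest. All 12 of the list were lower in residual than in primary cells and higher in recurrent than in residual cells, with list means of 8.21 to 8.54 on the primary, 4.44 to 5.03 on the residual and 7.65 to 8.11 on the recurrent arrays. Of all genes, 7.61% were called lower in the first of these comparisons and 3.58% higher in the second. Macrophage markers were lower in residual than in primary cells, with 5 of 11 called. Their list means were 4.92 to 5.74 on the residual and 5.94 to 6.68 on the primary arrays. Their brightest members were Cd14, at 7.72 ± 0.24 and 9.18 ± 0.23, and Cd68, at 6.28 ± 0.81 and 7.55 ± 0.53 in residual and primary cells (SD, n = 3 and 4). In the same comparison 4.81% of all genes were called higher. Counts of 1 or 2 in the short lists that follow are not read as a change of the list. Pericyte markers rose in 1 of 8 cases, Anpep, and Notch3, the next brightest, was not called (adjusted p = 0.293). None of 10 endothelial markers was called, the brightest being Cdh5 and Egfl7, nor was any of 10 lymphocyte markers, the brightest being Klrb1c and Nkg7. Cdh5 was uneven on the recurrent arrays, from 4.66 to 10.13 (SD 2.62), and its highest primary and residual values were 5.72 and 4.69. Of 6 adipocyte markers Retn was called higher although below the olfactory percentile on all arrays, and the brightest, Fabp4 and Plin1, were not called. Of the epithelial lists, 2 of 12 luminal markers fell in residual cells, the bright Krt8 and Krt18, although the median difference of the list was 0.47. Residual 2 stood apart there, with a luminal mean of 6.03 against 5.20 and 5.17 on residual 1 and 3, and 9 of 12 markers above background. Of 10 basal markers 2 rose, Krt14 and Mylk, and Itga6 fell. In recurrent against residual cells Krt14 and Anpep were lower, as Fzd1 and Fzd7 were, and Itga6, Krt8 and Krt18 were higher. Krt14 had means of 7.63 ± 0.46, 10.36 ± 0.30 and 7.08 ± 0.61 in the primary, residual and recurrent stages (SD, n = 4, 3 and 4). How far these shifts and the Frizzled differences are linked was not tested.

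**Figure D4:**
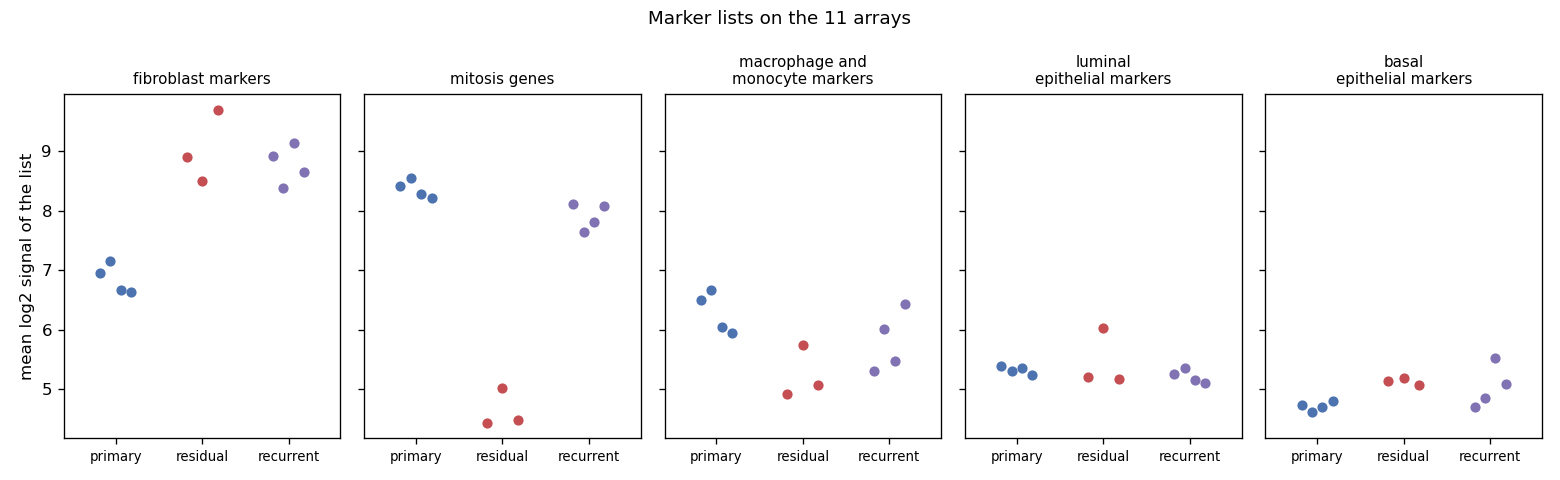
Mean log2 signal (vertical axis) of 5 marker lists on each of the 4 primary, 3 residual and 4 recurrent arrays (points). Fibroblast markers are high on residual and recurrent arrays alike, while the mitosis list is low only on the residual arrays, at 4.44 to 5.03.

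For each of the 4 called Frizzled genes, the 3 most similar profiles were sought among 19591 other named genes. Similarity was the root mean square difference over the 11 arrays after each gene was centred on its own mean, a description in which all genes share the same arrays. Closest to Fzd1 were Bhlhe40, a transcriptional repressor linked to the circadian clock (0.18 log2 units), Tspyl5 (0.18) and Odf4 (0.18), of which Tspyl5 and Odf4 were dim. Closest to Fzd7 were Adamts10, a secreted metalloprotease (0.19), Bhlhe41, the close relative of Bhlhe40 (0.21), and Pdgfc, a growth factor of the PDGF family (0.24). For comparison, the full range over the arrays was 1.37 for Fzd1 and 2.19 for Fzd7. Bhlhe41 had means of 9.74 ± 0.18 in residual and 7.90 ± 0.21 in primary cells, and 8.10 ± 0.35 in recurrent cells.

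The genes closest to Fzd2 were Zfp799 (0.29), Krtap4-13 (0.30) and C1ra, a complement protease (0.31), over a Fzd2 range of 2.49. Those closest to Fzd6 were Fam20a, a pseudokinase of the secretory pathway (0.36), Slc7a2, a transporter of cationic amino acids (0.45), and Pdgfrl, a PDGF receptor-like protein (0.46), over a Fzd6 range of 3.22. Fam20a read 7.41, 8.80, 9.26 and 9.72 on recurrent 1 to 4, and Slc7a2 4.15, 6.13, 7.52 and 7.43. These genes were picked for their likeness to Fzd6 on the same arrays, so their order there is part of the choice.

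**Figure D5:**
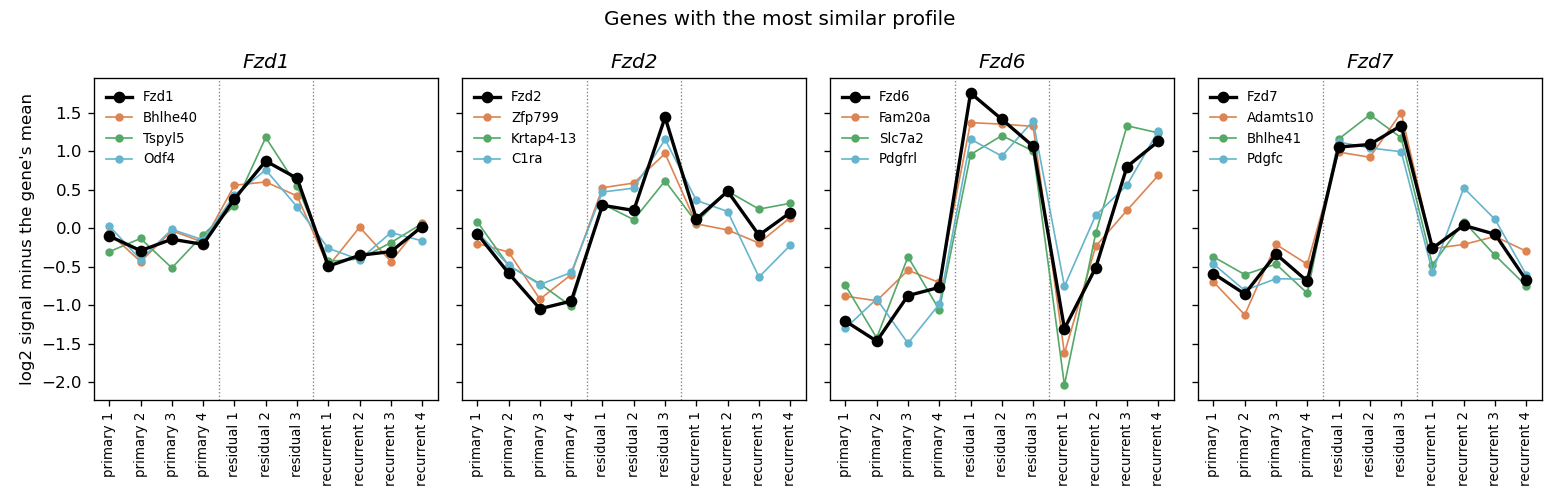
Log2 signal minus each gene's own mean (vertical axis) on the 11 arrays for Fzd1, Fzd2, Fzd6 and Fzd7 (black) and the 3 genes with the most similar profile to each (colours); dotted lines part the stages. Fzd6 and its closest genes vary widely over the recurrent arrays, while Fzd1 and Fzd7 return near their primary values there.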

How the data were processed

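RNA of 4 primary, 3 residual and 4 recurrent samples was measured on 1 Affymetrix array each. The authors deposited log2 signals made with RMA and R 3.0.2, per the submitters' processing notes, as 24479 probe sets, 1 per Entrez Gene identifier. No source used here gives the version of the probe annotation. RMA compresses dim signals, so differences near background may be understated, or overstated where the background itself differs between groups. Of the probe sets 23281 were named from the platform table and 556 through the GRCm38.p6 gene table. The brighter of 2 probe sets was kept for 2 symbols, which left 23835 genes.

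All 11 arrays entered one model of the 3 groups in limma 3.58.1 in R 4.3.3 (8 residual and 3.46 prior degrees of freedom), with two-sided tests adjusted by Benjamini-Hochberg over all named genes. The steps were checked on simulated data. Of 217 entries in 19 gene lists, 215 were measured. The members and lists were chosen with earlier results of these data known. Named genes were all Frizzled genes, up to 4 called members of each pathway list with the largest change (otherwise the 2 smallest p), the 2 brightest cell type markers of each list and the 3 nearest profiles. Others named were chosen after their values were seen. They were Lrp5, Lrp6, Znrf3, Rnf43, the Dvl genes, Ctnnb1, Axin2, Sox4, Cd44, Wnt5a, Epcam, Cdh1, Pi16, Acta2, Cnn1, Mylk and Retn. Alternatives were other array scalings, a filter on dim genes, other estimates of the spread, a stricter threshold of 0.01, the replicate number as a block, fits of each pair of groups alone and leaving out each array. Figures were drawn with matplotlib 3.10.9.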

Additional observations from a re-analysis of the deposited data

Results flagged for a closer look

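Fzd8 on primary 2 stood apart from the other primary arrays: it read 5.05, against 5.38, 5.39 and 5.38 on primary 1, 3 and 4. The gap to the nearest of them was 0.948 of the range of the 4 arrays, above Dixon's 95% critical value for 4 samples. With 20 groups of 4 arrays tested, chance flags about 1 in 20.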

How the results depend on the processing

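The 4 calls of Fzd1, Fzd2, Fzd6 and Fzd7 in residual against primary cells, and those of Fzd1 and Fzd7 in recurrent against residual cells, kept their direction in all alternatives run and their call in all but those for Fzd2 named here. With arrays centred on their medians, quantile-normalized again or scaled to one median and interquartile range, the difference of Fzd6 was 2.41 to 2.53, of Fzd7 1.69 to 1.87, of Fzd2 1.24 to 1.27 and of Fzd1 0.74 to 1.00 in residual against primary cells. Fzd2 missed the stricter threshold (adjusted p = 0.0159) and, with the replicate block, the usual one (1.28, adjusted p = 0.0653), so that 3 Frizzled genes were then called in place of 4. The replicate numbers did not pair the samples: deviations of same-numbered arrays from their group means correlated at -0.081 to 0.017. The block changed no other call among the Frizzled genes. The filter on dim genes left out Fzd3 and Fzd10.

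Differences near 0 changed sign without calls. Leaving out each array in turn, residual against primary gave -0.096 to 0.32 for Fzd5, -0.21 to 0.064 for Fzd10 and -0.20 to 0.0071 for Fzd4. Recurrent against primary gave -0.015 to 0.21 for Fzd3, which was -0.0060 with arrays scaled to one interquartile range, -0.21 to 0.12 for Fzd8 and -0.066 to 0.024 for Fzd10. Recurrent against residual gave -0.053 to 0.37 for Fzd5 and -0.086 to 0.19 for Fzd10. The cause was not tested.

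Counts over all genes moved more. Residual against primary had 2960 calls (1375 at the stricter threshold), with 1146 higher and 1814 lower, but 899 and 2333 with arrays centred on their medians. Recurrent against primary had 430, but 277 with the block, 142 at the stricter threshold and 203 to 225 with 1 primary array left out. Recurrent against residual had 1377, but 609 in a fit on those groups only, 872 with the block and 521 at the stricter threshold. Signals at background limit what can be said of Fzd3, Fzd10, Fzd2 and Fzd9.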
